A study of Mus musculus with 12 samples.

Results

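The microRNAs (miRNAs) miR-126, miR-221 and miR-222, which are known from blood vessel endothelium, were followed in mouse liver after dosing with benzo[a]pyrene (BaP). This combustion product is a carcinogen once liver enzymes have oxidised it to forms that bind DNA. The members were taken by probe name from the array: mmu-miR-126-3p, mmu-miR-126-5p, mmu-miR-221 and mmu-miR-222. They are 4 of 595 mouse miRNA probes, and all 4 were among the 212 tested, that is, their liver signal passed the background limit on 3 or more arrays of BaP or of vehicle. The BaP group was given 150 mg/kg daily for 3 days, and the vehicle group corn oil on the same schedule. All animals were male B6C3F1 mice, which the labels give as 27-30 days old, and the median liver lobe was taken 4 h after the last dose. A later time point that the design text names was not analysed here. Each of 12 arrays (6 BaP and 6 vehicle) carried Hy5-labelled RNA of 1 liver sample against Hy3-labelled RNA of a purchased pool of 10 mouse tissues. Liver over reference therefore means liver over that pool, and whole liver RNA mixes hepatocytes with endothelial and other cells.

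A miRNA guides the silencing complex to messenger RNAs that pair with its seed, bases 2 to 8 of the mature strand. The miR-126 hairpin lies in an intron of Egfl7, a gene of endothelial cells. Its 3p strand is known to hold down Spred1 and Pik3r2, 2 brakes on vascular endothelial growth factor signalling, and its 5p strand is known to act on Dlk1. The hairpins of miR-221 and miR-222 neighbour each other and are made from a shared transcript. Their 3p strands target the receptor Kit and the cell cycle inhibitor Cdkn1b. The pair is not limited to endothelium, and it is known to be raised in liver tumours and in dividing hepatocytes.

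Mature sequences were found in RefSeq (GRCm38.p6) for 3 of the 4 members; miR-126-5p is named only. They are shown because the seed, in capitals, decides which of the members can share targets.
miR-126a-3p (the array's miR-126-3p), chr2:26591402-26591423, plus strand: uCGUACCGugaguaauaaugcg
miR-221-3p, chrX:19146307-19146329, minus strand: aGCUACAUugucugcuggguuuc
miR-222-3p, chrX:19146901-19146923, minus strand: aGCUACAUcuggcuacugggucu
Among the 1679 mature mouse sequences of that table, the miR-126a-3p seed occurred once. The seeds of miR-221-3p and miR-222-3p were the same, and only miR-1928 shared them. Aligned without gaps from the 5′ end, miR-221-3p and miR-222-3p were identical at their first 8 bases and at 11 of 23 positions in all, so the bases that tell them apart lie 3′ of the seed.

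The hairpins show where each mature strand, in capitals, is cut from, and that miR-221 and miR-222 come from separate stems of the same stretch of chromosome X.
Mir126a, chr2:26591357-26591429, plus strand: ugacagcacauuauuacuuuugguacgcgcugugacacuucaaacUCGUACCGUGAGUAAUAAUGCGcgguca
Mir221, chrX:19146294-19146388, minus strand: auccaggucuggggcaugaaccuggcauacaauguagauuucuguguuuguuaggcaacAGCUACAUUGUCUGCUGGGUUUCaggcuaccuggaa
Mir222, chrX:19146893-19146971, minus strand: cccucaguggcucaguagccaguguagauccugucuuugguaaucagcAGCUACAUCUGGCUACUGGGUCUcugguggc
Mir126a fell inside the annotated span of Egfl7 (chr2:26581083-26592682), and 504 bases separated the Mir221 and Mir222 hairpins.

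Across the 12 arrays, 166 to 341 mouse miRNA probes were above background in liver and 235 to 365 in the reference. The hepatocyte miRNA miR-122 had a mean log2 liver over reference ratio of 3.79, and those of the hepatocyte markers miR-192 and miR-194 were 2.88 and 2.63. The array called vehicle 5 stood apart: its ratios had a mean correlation of 0.918 with those of the other arrays, against 0.946 to 0.976 elsewhere. On it, 41 probes named for other species were at least 2-fold above their median, against at most 1 on any other array. Scans ran on 4 days, and each day held both groups. Arrays are numbered within a group only to name them. Sample titles carry a separate code for each array, but no label says that a code is an individual mouse. The p-values therefore reflect only how these samples vary, which may be technical.

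Both strands of miR-126 were measured well above background in liver, while miR-221 and miR-222 were close to it. Net signal is a spot's mean intensity less its local background, in scanner units. A probe's 4 spots were averaged, leaving out spots flagged as outliers unless no other was left. On the liver channel, miR-126-3p ran from 1187 (median 1864) to 2633 in BaP and from 1269 (median 2034) to 3286 in vehicle. On the reference channel it ran from 6400 (median 7311) to 8254 on BaP arrays and from 5642 (median 7747) to 9547 on vehicle arrays. It was above background on all 12 arrays in both channels, and the liver signal was below the reference signal on each of them.

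miR-126-5p had a net liver signal of 123 to 294 in BaP (median 189) and of 143 to 379 in vehicle (median 198). Its reference signal was 429 to 656 on BaP arrays (median 575) and 485 to 764 on vehicle arrays (median 555). It too was above background on all 12 arrays in both channels. BaP 1 and vehicle 1, the 2 arrays of scan day 1, gave the highest liver signal of their group for both strands.

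For miR-221, liver signals were 15.6 to 37.3 in BaP (median 17.5) and 16.4 to 34.1 in vehicle (median 20.6). It was above background in liver on 3 of 6 BaP and 3 of 6 vehicle arrays. miR-222 gave 17.7 to 35.9 in BaP (median 20.1) and 23.3 to 36.3 in vehicle (median 26.7). It was above background in liver on 5 of 6 arrays in each group. In the reference pool both were above background on all 12 arrays, with medians of 93.5 (BaP arrays) and 104 (vehicle arrays) for miR-221 and of 268 (BaP arrays) and 296 (vehicle arrays) for miR-222. The background limit itself differed between arrays, from 1.92 to 28.8 in liver. It was lowest on the arrays of scan day 1, where a liver signal of 17.7 for miR-222 passed, while 20.4 for miR-221 on vehicle 5 did not. A probe passed only if more of its spots than not did, and the highest miR-221 signal, 37.3 on BaP 2, failed on that count.

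**Figure D1:**
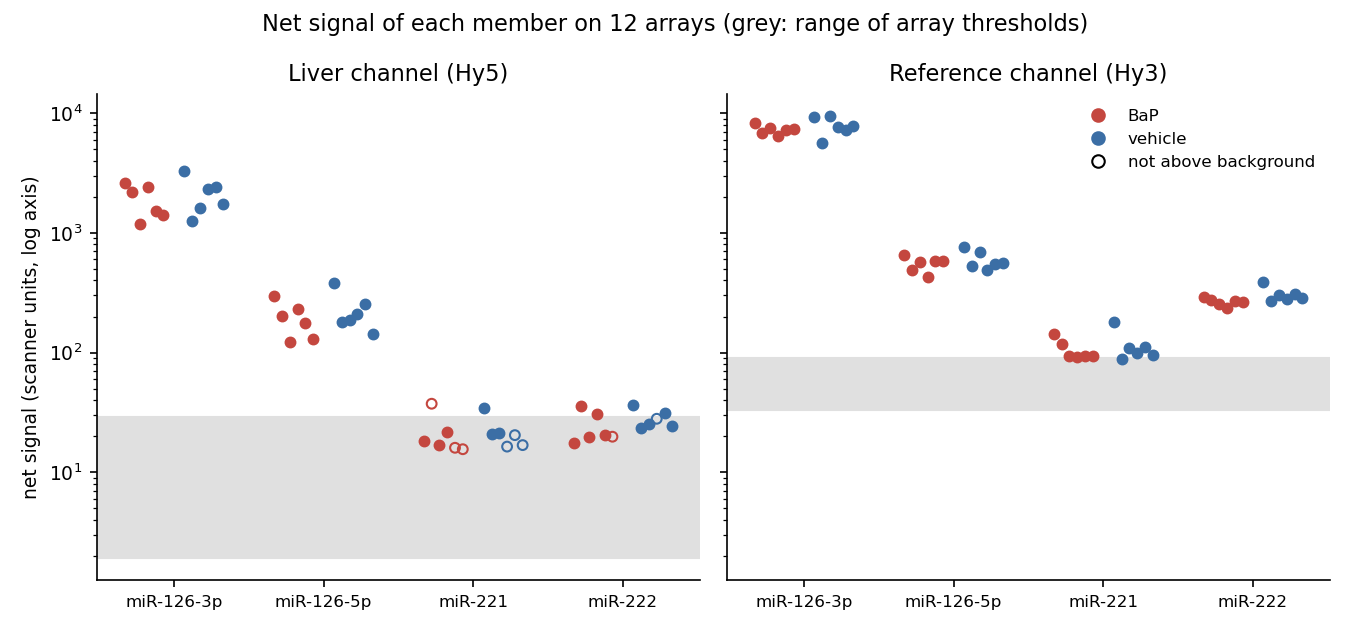
Net signal (scanner units, log axis) of each member in the liver channel (left panel) and the reference channel (right panel), 1 point per array, BaP left of vehicle within each member; open points were not above background and the grey band spans the lowest to highest array limit. Both miR-126 strands lie above the band in liver, whereas miR-221 and miR-222, at 15.6 to 37.3, lie within or just above it.

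After background correction and within-array normalization, miR-126-3p was about 3-fold lower in liver than in the tissue pool. Its log2 liver over reference ratio was -1.59 ± 0.18 in BaP and -1.59 ± 0.16 in vehicle (SD, n = 6 each), which is 3.00-fold and 3.01-fold lower in liver. In BaP the lowest, median and highest arrays were -1.79, -1.57 and -1.33, and in vehicle -1.76, -1.66 and -1.34. The ratio was below 0 on 12 of 12 arrays, and the mean ranked 14 from the lowest of the 212 tested miRNAs. The groups overlapped over nearly their whole range, and the highest array of each group was the one scanned on day 1. Of the probe's 4 spots, 3 were flagged on BaP 1 and all 4 on vehicle 1, whose value thus rests on flagged spots.

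The other strand of the same hairpin stood much nearer to the pool. miR-126-5p had a log2 ratio of -0.27 ± 0.19 in BaP and -0.19 ± 0.22 in vehicle (SD, n = 6 each). Its lowest, median and highest arrays were -0.50, -0.32 and 0.03 in BaP and -0.44, -0.20 and 0.07 in vehicle. It was below 0 on 9 of 12 arrays and ranked 87 from the lowest of 212.

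miR-222 was about 2-fold lower in liver than in the pool, with a log2 ratio of -1.05 ± 0.07 in BaP and -1.13 ± 0.18 in vehicle (SD, n = 6 each). The lowest, median and highest arrays were -1.14, -1.06 and -0.95 in BaP and -1.39, -1.12 and -0.85 in vehicle. All 6 BaP values lay inside the vehicle range, whose ends were vehicle 5 and vehicle 3. The size of the miR-222 ratio depended on the processing. Its liver signal was close to background, and with plain background subtraction its mean log2 ratio over 12 arrays was -2.09. miR-221 was nearer to 0, at -0.27 ± 0.09 in BaP and -0.32 ± 0.16 in vehicle. Its lowest, median and highest arrays were -0.40, -0.25 and -0.17 in BaP and -0.51, -0.33 and -0.10 in vehicle, and again all BaP values lay inside the vehicle range. Both miRNAs were below 0 on 12 of 12 arrays.

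Mean ratios below 0 were found for 58% of tested miRNAs, and for all 4 members. A mean at or under the 2-fold line, with a ratio below 0 on all 12 arrays, was found for 38 (17.9%), and miR-126-3p and miR-222 were 2 of them. These ratios are descriptions with no test, because the pool is 1 RNA and no array had the dyes exchanged, so that each probe's own dye bias stays in its ratio. A lower liver value can reflect fewer cells of a type or less RNA per cell, which cannot be told apart in whole tissue. The offset of 50 that the background correction adds pulls dim signals toward each other: with an offset of 10, the 12-array mean log2 ratio of miR-221 was -0.56 in place of -0.30 and that of miR-222 was -1.64 in place of -1.09. With no normalization within arrays, that of miR-126-5p was -1.25 in place of -0.23.

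**Figure D2:**
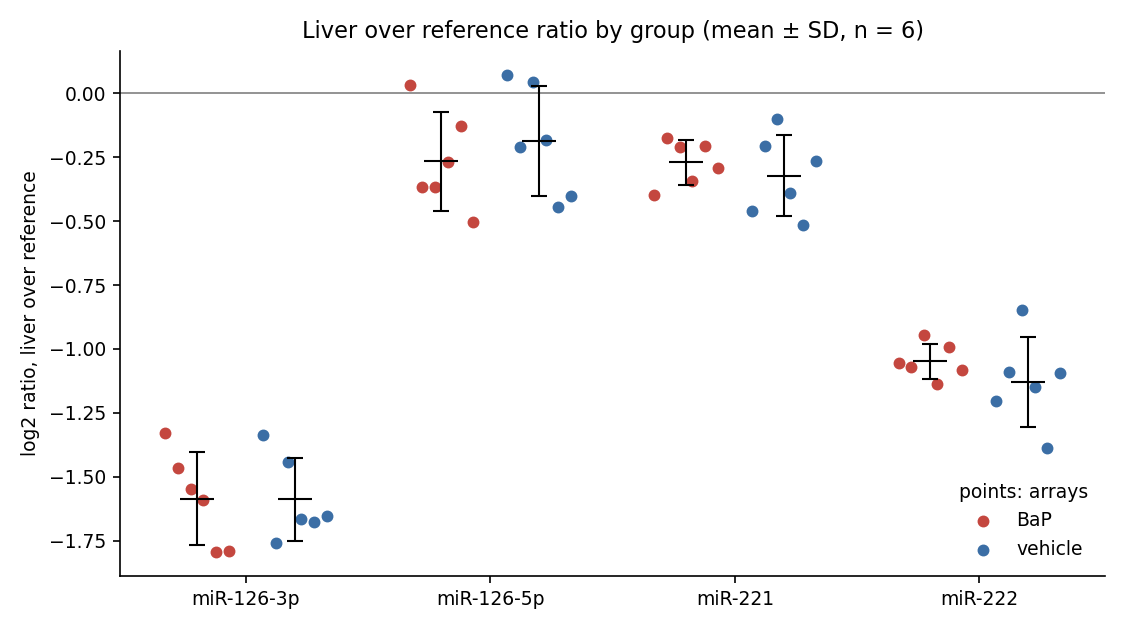
Log2 ratio of liver over reference for each member, 1 point per array, BaP left of vehicle, with the group mean ± SD (n = 6). miR-126-3p and miR-222 lie at -0.85 or lower on every array, miR-126-5p and miR-221 between -0.51 and 0.07, and BaP and vehicle points overlap for all 4.

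**Figure D3:**
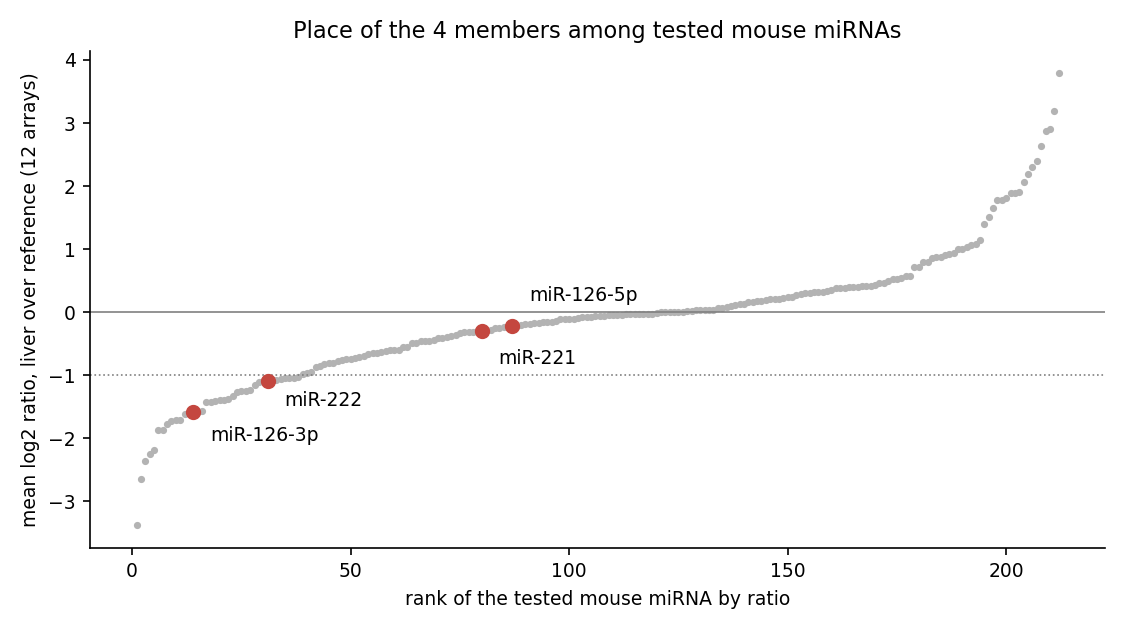
Mean log2 ratio of liver over reference over 12 arrays (vertical axis) against rank (horizontal axis) for the 212 tested mouse miRNAs in grey, with the 4 members in red; the dotted line marks 2-fold lower in liver. miR-126-3p ranks 14 and miR-222 ranks 31 from the lowest, while miR-221 ranks 80 and miR-126-5p ranks 87.

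Within each pair, the ratios to the same pool differed. Per array, the log2 ratio of miR-126-3p minus that of miR-126-5p was -1.32 ± 0.20 in BaP and -1.40 ± 0.13 in vehicle (SD, n = 6 each). Over both groups it was -1.36, with arrays from -1.67 to -1.10, so the 3p ratio was 2.57-fold lower than the 5p ratio and lower on 12 of 12 arrays. The log2 ratio of miR-222 minus that of miR-221 was -0.78 ± 0.08 in BaP and -0.81 ± 0.06 in vehicle, and below 0 on 12 of 12 arrays. As miR-222 was above background in liver on 10 of 12 arrays and miR-221 on 6, no fold is given for that pair. In both pairs the spread over arrays was small beside the difference. The direction was the same under all 8 other background, normalization, signal and spot settings, but the size was not. Median centring shifts all probes of an array alike, so for these differences it must give the same value as no normalization. The strand difference was -0.69 without normalization within arrays and -1.57 on the scanner software's processed signals, and the difference between miR-222 and miR-221 was -1.21 on processed signals. The dye bias of each probe stays in these differences, as does, for miR-222 and miR-221, the offset beside dim liver signals. The part of either was not tested beyond these settings.

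No member passed the test between BaP and vehicle. The difference in log2 ratio, BaP minus vehicle, was 0.0027 for miR-126-3p (95% limma interval -0.20 to 0.21). It was -0.08 for miR-126-5p (-0.32 to 0.16), 0.05 for miR-221 (-0.11 to 0.22) and 0.08 for miR-222 (-0.09 to 0.25). The adjusted p from limma was 0.992 for each of the 4, after Benjamini-Hochberg adjustment over the 212 tested miRNAs. Two-sided exact permutation tests over all 924 regroupings of the arrays gave unadjusted p-values of 0.983 for miR-126-3p, 0.50 for miR-126-5p, 0.496 for miR-221 and 0.318 for miR-222, where the smallest possible is 0.00216. BaP and vehicle arrays overlapped for all 4, and 3, 2, 4 and 5 of the 6 BaP arrays, in that order, were above the vehicle mean.

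No other miRNA passed either. In limma, 0 of 212 (0%) were under 0.05 after adjustment and 2 (0.943%) before it, where 10.6 would be expected if no miRNA differed. The exact permutation test gave 3 (1.42%) at an unadjusted 0.05, and 0 (0%) had groups that did not overlap. The difference was above 0 for 3 of the 4 members and for 59.4% of all tested miRNAs, and that share depended on the scaling: it was 42.0% with no within-array normalization and 80.2% for the liver channel scaled at its 75th percentile. Under that percentile scaling, the median difference over all tested miRNAs was 0.10, against 0.02 in the reported fit.

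The intervals bound how large a difference these arrays leave room for. As folds on the scale of signal plus 50, they ran from 0.868 to 1.16 for miR-126-3p, from 0.802 to 1.12 for miR-126-5p, from 0.926 to 1.16 for miR-221 and from 0.942 to 1.19 for miR-222. All 4 intervals lay within 1.5-fold either way, as did those of 93.9% of tested miRNAs, and 97.6% lay within 2-fold. Because of the offset, a doubling of the net liver signal would show as 1.97-fold for miR-126-3p and 1.80-fold for miR-126-5p, and a halving as 0.513 and 0.601. These lay outside both members' intervals. For miR-221 and miR-222 a doubling would show as only 1.36-fold and 1.40-fold, and a halving as 0.820 and 0.801. Lying within 1.5-fold therefore does not by itself bound a doubling or halving of their net signal. These values did, however, also lie outside both members' intervals in the reported fit. For miR-221 and miR-222 the intervals bound the measured signal and not the miRNA, since the net liver signal lay near that of the negative controls, whose array medians had a median of 8.75. Their intervals also widened with the processing: for the liver channel scaled at its 75th percentile, the upper end in log2 was 0.49 for miR-221 and 0.43 for miR-222.

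**Figure D4:**
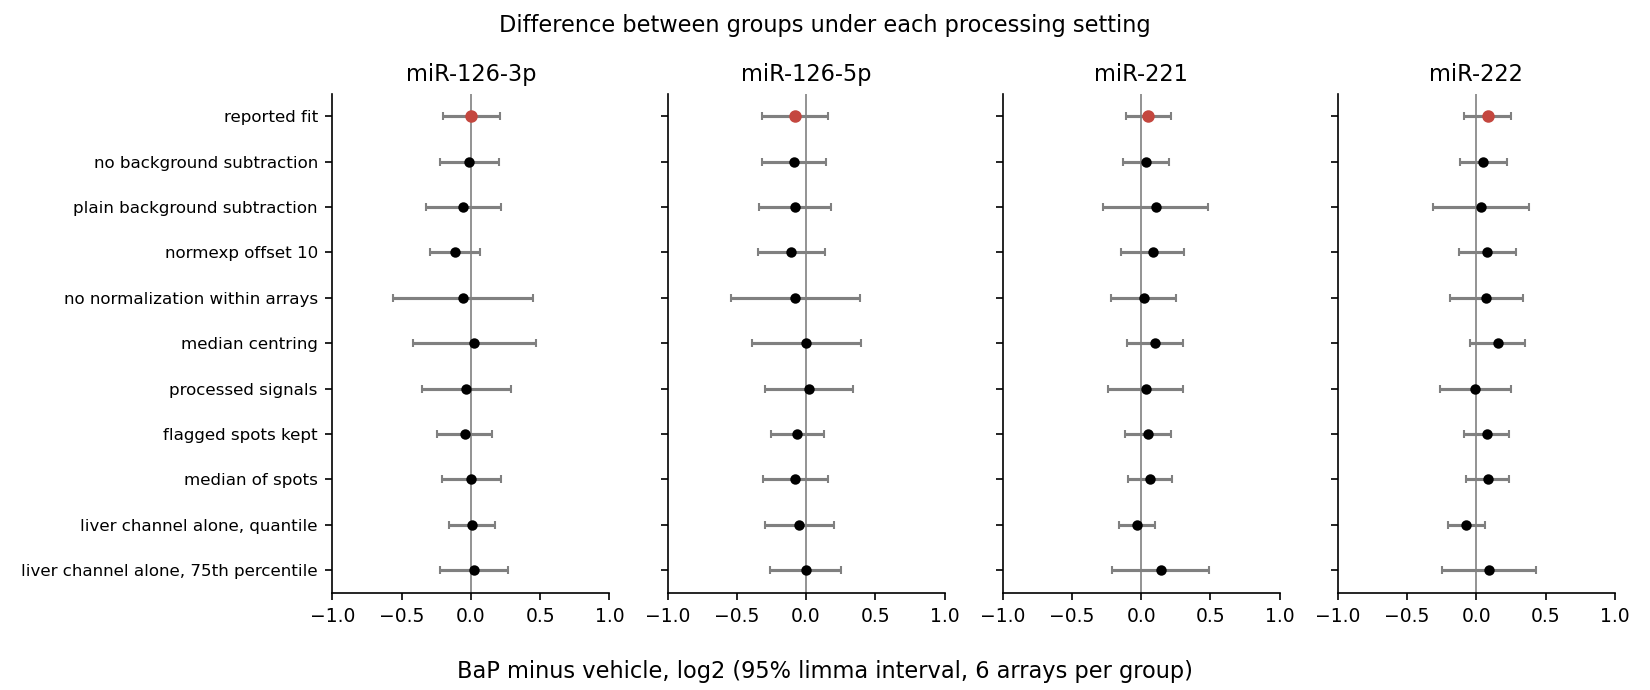
BaP minus vehicle difference in log2 units (horizontal axis) with its 95% limma interval for each member, in the reported fit (top, red point) and 10 other processing settings; the bottom 2 rows use the liver channel alone. All intervals include 0.

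Within the 4 scan days, which held 1 to 2 arrays of each group, the sign of the difference was not constant. For miR-126-3p the within-day values were 0.0065, -0.14, 0.09 and 0.08, and for miR-126-5p -0.04, 0.09, -0.28 and 0.04. For miR-221 they were 0.06, 0.02, -0.04 and 0.11, and for miR-222 0.15, 0.06, -0.04 and 0.13. Fitted with a term for scan day, the differences were 0.02, -0.08, 0.03 and 0.06 in the same order of members, with limma adjusted p-values of 0.918 for miR-126-3p and 0.873 for the others. Without vehicle 5 the difference was -0.02 for miR-126-3p, -0.13 for miR-126-5p, 0.01 for miR-221 and 0.03 for miR-222, with a limma adjusted p of 0.990 for each. That array had the lowest ratio of both miR-221 and miR-222.

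The spread of each member over arrays was set beside that of the reference, which is the same RNA on every array. The normalization drew on both channels, so the normalized reference signal is not free of the liver signal. After normalization between channels and arrays, the SD of the liver log2 signal over 12 arrays was 0.24 for miR-126-5p, against 0.14 for the reference signal. It was 0.14 against 0.12 for miR-126-3p, 0.13 against 0.15 for miR-221 and 0.15 against 0.13 for miR-222. Over all tested miRNAs the median SD was 0.18 in liver and 0.14 in the reference. Only miR-126-5p among the members thus varied more in liver than the typical miRNA; this was not tested. Its SD between the 4 spots of an array averaged 0.08 in log2 ratio, with 0.37 on BaP 2 as the highest value.

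Across arrays, the measured log2 ratios of miR-221 and miR-222 varied together. Liver signals were close to background: miR-221 was above it on 6 of 12 arrays and miR-222 on 10. The part of this in the shared variation was not tested. Pearson's r of their log2 ratios over 12 arrays was 0.855, with a permutation p of 0.0009 after adjustment over the 6 pairs of members (100000 resamples). Spearman's rho was 0.727, with an adjusted permutation p of 0.0617. Without vehicle 1 and vehicle 5, the 2 arrays farthest from the median of miR-221, r was 0.717. It was 0.515 within BaP and 0.931 within vehicle, where vehicle 5 and vehicle 3 form the 2 ends. All arrays share the normalization, and 1.63% of the 22366 pairs of tested miRNAs had an r at least as high, against a median of 0.15. In the normalized reference channel the r of the pair was 0.554, and in the liver channel 0.767. The reference RNA does not vary, but the normalization drew on both channels. In that liver channel, pairs of a miR-126 strand with miR-221 or miR-222 ran from -0.44 to 0.85, the highest being miR-126-5p with miR-221. The place of miR-221 with miR-222 among all pairs varied with the scaling: on unnormalized ratios r was 0.683, below the median of 0.83 over all pairs, and with median centring it was 0.725 against a median of 0.713. On processed signals r was 0.573 (adjusted permutation p = 0.286).

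The strands of miR-126, cut from 1 hairpin, gave an r of 0.607 (adjusted permutation p = 0.116) and a rho of 0.497 (adjusted permutation p = 0.315). Without BaP 1 and vehicle 1, the arrays of scan day 1 on which 3 and 4 of the miR-126-3p spots were flagged, r was 0.259. It was 0.456 within BaP and 0.797 within vehicle, and 13.9% of all pairs reached it. This r depended on the processing: it was -0.43 on processed signals, -0.07 with plain background subtraction, 0.95 with median centring and 0.96 with no normalization within arrays. With no normalization the median r of all pairs was itself 0.83, and with median centring 0.713. Of the 4 pairs that join a miR-126 strand with miR-221 or miR-222, r ran from -0.13 to 0.31, and the smallest adjusted permutation p was 0.689.

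**Figure D5:**
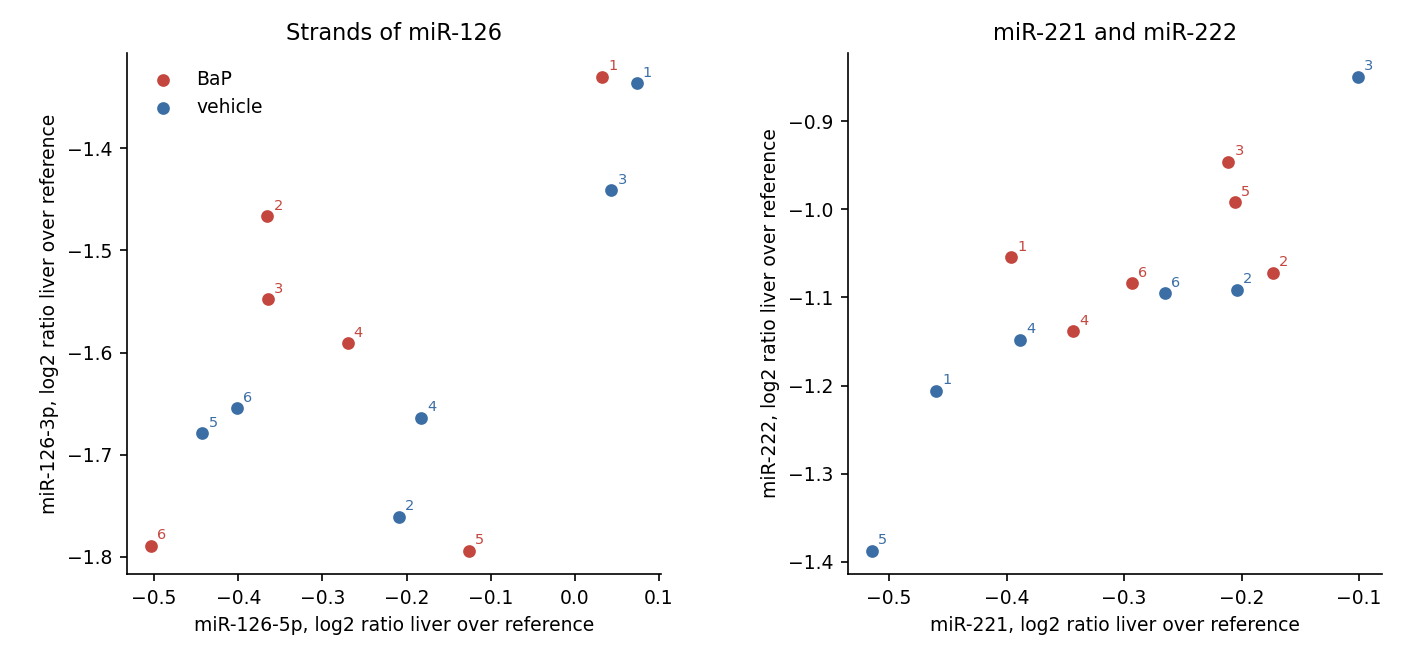
Log2 ratio of liver over reference of one member against its partner, 1 point per array, labelled by array number, BaP in red and vehicle in blue. Left, miR-126-3p against miR-126-5p (r = 0.607), with both arrays numbered 1 at the upper right; right, miR-222 against miR-221 (r = 0.855), with vehicle 5 lowest and vehicle 3 highest.

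The tested mouse miRNAs whose ratios ran most like each member over the 12 arrays were picked by Pearson's r among 211 candidates. For miR-126-3p they were miR-26a (0.98), let-7g (0.97) and miR-26b (0.94). miR-126-5p was most like miR-875-3p (0.91), miR-28 (0.85) and miR-207 (0.85), and its own partner strand was not among the 3. For miR-221 they were miR-25 (0.90), miR-382 (0.87) and miR-200b (0.87), and for miR-222 miR-706 (0.96), miR-221 (0.85) and miR-674 (0.85). So miR-221 was second to miR-222, while miR-222 was not among the 3 nearest to miR-221. These are the highest of many values, with no test, from arrays that share a normalization. Of those nearest to miR-221, miR-25 was above background in liver on 5 of 12 arrays, miR-200b on 7 and miR-382 on 10. Of those nearest to miR-222, miR-221 was above it on 6, miR-674 on 9 and miR-706 on 12. In the liver channel alone after quantile normalization, the r of miR-126-3p with miR-26a was -0.05 and that of miR-126-5p with miR-875-3p was -0.17.

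Other miRNAs known from endothelium and angiogenesis were taken as a list of 24, of which 19 were tested. BaP minus vehicle was above 0 for 10 and below 0 for 9, none passed, and the median was 0.0086, against 0.02 over all tested miRNAs. The highest were miR-125b-5p at 0.16 and miR-23b, of a cluster known to act on endothelial sprouting, at 0.11. The lowest were miR-378 at -0.08 and miR-19a, a member of the cluster named for miR-17, at -0.12, each with an adjusted p of 0.992 in limma. Of the 19, 9 (47.4%) had a mean past the 2-fold line and a ratio below 0 on all 12 arrays, against 17.9% of all tested miRNAs, and the median log2 ratio of the 19 was -0.96, against -0.06 over all tested. The list was chosen with earlier results known, so nothing particular to it is read from this. Marker miRNAs of other cell types also gave no call: 0 of 3 for hepatocytes, 0 of 4 for leukocytes, 0 of 2 for erythroid cells and 0 of 4 for smooth muscle and stellate cells. Their median log2 liver over reference ratios were 2.88, -1.72, -1.21 and -1.42 in that order, against that same -0.06.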

How the data were processed

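The authors deposited spot intensities on a linear scale for 12 two-colour arrays, read from the scans by Agilent Feature Extraction (version 9.5.3.1 in the submitters' processing notes); mean signals and median local backgrounds are not normalized, and processed signals are background-subtracted and dye-normalized, per the file headers. The deposited value table holds log2 ratios of reference over liver, a direction and scale taken from their match with the array files (r of 0.976 to 0.989 after turning the sign), and has no value for any member. Per the file headers, scans ran on 4 days.

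In R 4.3.3 with limma 3.58.1, background was corrected by normexp (offset 50) and ratios by loess within arrays. Weight 0 was given to flagged spots (7.12% of 8720 spots) and to all spots not named for a miRNA, controls included. A probe's 4 spots were averaged, leaving out flagged spots unless no other was left, as for miR-126-3p on vehicle 1. The software's well-above-background flag is set for every spot, so a limit was put in its place after this was seen: the median of 28 negative control spots plus 2.6 scaled median absolute deviations. Tests were lmFit and eBayes with Benjamini-Hochberg adjustment over 212 miRNAs and two-sided exact permutation tests. The code was tested on simulated data. Depth has no meaning for arrays; their number limits the precision. Replicate numbers follow accession order and were not used to pair samples.

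The members and lists were chosen with earlier results of these data known. Named were the 4 members, the 3 miRNAs with the highest r to each, the 2 highest and 2 lowest of the endothelial list, and probes for the other hairpin strands. The alternatives were other background corrections, normalizations, signals, spot handling, filters, scan day and each array left out.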

Additional observations from a re-analysis of the deposited data

Results flagged for a closer look

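The lowest or highest array of a group was compared with its nearest neighbour by Dixon's test for the 4 members' ratios, liver signals and reference signals in both groups, 24 sets of 6 values, and chance alone marks about 1 in 20. Of these, 2 sets were marked, both in the reference channel of the vehicle arrays. For miR-221, vehicle 1 had a normalized log2 reference signal of 7.24, and the next array had 6.94. For miR-222, vehicle 3 had 7.85 and was the lowest, with the next array at 7.99.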

How the results depend on the processing

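No paired analysis was possible because the replicate numbers follow accession order and pair no samples. The count of miRNAs past the threshold was 0 under every alternative run. No member passed under any of them, but the sign of its small difference was not stable. BaP minus vehicle of miR-126-3p was -0.011 without background subtraction, -0.0535 with plain subtraction, -0.11 with an offset of 10, -0.0566 without normalization, -0.0326 on processed signals, -0.0432 with flagged spots kept and -0.14 within scan day 2. It ran from -0.0486 to 0.0533 as each array was left out. As each array was left out, that of miR-126-5p ran from -0.140 to -0.028, that of miR-221 from 0.013 to 0.096 and that of miR-222 from 0.030 to 0.138. That of miR-126-5p was 0.0033 with median centring, 0.0189 on processed signals, 0.0868 within scan day 2 and 0.0425 within scan day 4. That of miR-221 was -0.0301 in the liver channel alone with quantile normalization and -0.0395 within scan day 3. That of miR-222 was -0.0063 on processed signals, -0.0715 in the liver channel with quantile normalization and -0.0388 within scan day 3.

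The ratios and pair differences below kept their direction and changed in size; the cause was not tested beyond the offset's own construction. The settings are plain subtraction, offset 10, no normalization, median centring and processed signals. Over 12 arrays, miR-126-3p in liver over reference was -1.39, -1.33 and -1.94 under the first 3 and -2.21 on processed signals. miR-126-5p was -1.25 without normalization, -0.83 with median centring and -0.63 on processed signals. miR-221 was -0.88, -0.56, -0.97, -0.55 and -0.70 in the order of the settings, and miR-222 was -2.09, -1.64, -1.98, -1.55 and -1.91.

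By group, miR-126-3p in BaP was -1.39 with offset 10, -1.97 without normalization and -2.22 on processed signals, and in vehicle -1.28, -1.91 and -2.19, and -1.37 with plain subtraction. miR-126-5p without normalization, with median centring and on processed signals was -1.29, -0.83 and -0.62 in BaP and -1.21, -0.83 and -0.64 in vehicle. Under the 5 settings in order, miR-221 was -0.82, -0.52, -0.96, -0.50 and -0.68 in BaP and -0.93, -0.60, -0.98, -0.60 and -0.72 in vehicle. miR-222 was -2.07, -1.59, -1.94, -1.48 and -1.91 in BaP and -2.10, -1.68, -2.01, -1.63 and -1.91 in vehicle. The strand difference of miR-126 was -0.99, -1.03, -0.69, -0.69 and -1.57, and that of miR-222 minus miR-221 was -1.21, -1.08, -1.004, -1.004 and -1.21.

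The r of the miR-126 strands was -0.0685 with plain subtraction and -0.43 on processed signals, and passed the threshold at 0.96 without normalization and at 0.95 with median centring; as each array was left out it ran from 0.49 to 0.74, passing only without BaP 5. The r of miR-221 and miR-222 was 0.57 on processed signals, the 1 alternative run under which it did not pass; without normalization it was 0.683, and 75.9% of all pairs were at or above it. It ran from 0.79 to 0.91 as each array was left out. The r of miR-126-3p with miR-26a and of miR-126-5p with miR-875-3p was -0.0517 and -0.17 in the liver channel alone with quantile normalization. The alternatives for pair differences, correlations and the endothelial list were chosen after seeing the data. Restricting to probes above background on all 12 arrays left no value for miR-221 and miR-222, and the deposited value table gave none for any member. The liver signal of miR-221 and miR-222 lay near that of the negative controls.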

Other observations

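The opposite strands of the miR-221 and miR-222 hairpins were on the array only as probes named for human, hsa-miR-221* and hsa-miR-222*. In liver, hsa-miR-221* was above background on 0 of 6 BaP and 1 of 6 vehicle arrays, and in the reference on 2 of 6 BaP and 4 of 6 vehicle arrays. The probe hsa-miR-222* was above background on no array in either channel.

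In the liver channel alone after quantile normalization, the largest absolute r between a miR-126 strand and miR-221 or miR-222 was 0.91, against 0.31 for the reported ratios. The adjusted permutation p was 0.00042. Such a pair also passed in the liver channel scaled at its 75th percentile (r = 0.71, adjusted permutation p = 0.026) and on ratios without normalization within arrays (r = 0.87, adjusted permutation p = 0.00056). None passed on the reported ratios. These settings were chosen after seeing the data, and what the differences come from was not tested.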
